A study of Mus musculus with 9 samples.

Results

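The cells described here are the 77 cells that the authors labelled P among the 10186 single cells of mouse thyroid in the deposited table. They were taken by that label alone, and they made up 0.756% of the cells and 1.64% of all unique molecular identifiers (UMIs, each standing for 1 captured RNA molecule). Their markers fitted the working name of parathyroid chief cells: Pth, Chga, Kl, Spink8, Gcm2, Casr and Gata3 were each at a higher level in P than in any of the other 15 labels. The steps by which the authors assigned the labels are not given in the sources used here. If they were made from these counts, a gene that sets P apart from the rest is a description of the label and not a test, so none is given.

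Parathyroid chief cells lie in small glands beside or within the thyroid and secrete parathyroid hormone, which raises blood calcium. They read calcium through the calcium-sensing receptor Casr, which lowers hormone release when calcium is high, and they receive further signals from vitamin D through Vdr and from FGF23 through the co-receptor Kl (Klotho) with an FGF receptor. Gcm2 and Gata3 are transcription factors of parathyroid development and of hormone gene expression, and Chga encodes chromogranin A, an acidic protein stored with the hormone in secretory granules. The antibodies used in the study block the Notch pathway, in which ligands on a cell act on receptors of its neighbour.

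All groups were thyroids of normal male C57BL/6 mice, taken 7 days after a single injection into the abdomen, with 6 mice pooled into each of 3 samples per group. RW mice received a control antibody against ragweed at 40 mg/kg, aJ1aJ2 mice received antibodies against Jag1 and Jag2 at 20 mg/kg each, and aN1aN2 mice received antibodies against Notch1 at 5 mg/kg and Notch2 at 10 mg/kg. The mice were 10 to 12 weeks old by the series text and 10 to 14 weeks old by the sample protocols. Internal numbers in the sample titles fall into 3 ranges, called series A (RW 3 and aJ1aJ2 1), B (RW 1, RW 2, aJ1aJ2 3 and aJ1aJ2 4) and C (aN1aN2 1, 2 and 3) here. Series C held no other group, so receptor blockade and series C cannot be told apart. Whole samples held 583 to 1805 cells.

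P cells were uneven over the samples. RW 1 held 6, RW 2 held 0 and RW 3 held 9. aJ1aJ2 1 held 11, aJ1aJ2 3 held 3 and aJ1aJ2 4 held 11, while aN1aN2 1 held 11, aN1aN2 2 held 22 and aN1aN2 3 held 4. A P cell held 510 to 112416 UMIs, with a median of 5395. aJ1aJ2 1 contributed 205646 P UMIs from its 11 cells and aJ1aJ2 4 contributed 26800 from its 11, so samples with equal numbers of cells differed widely in depth. No P cell shared its barcode with a cell of another library.

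The hormone gene itself took 39.7% of all P UMIs and Chga a further 6.85%, so these 2 genes made up 46.6% of the RNA molecules counted in P. P held 98.7% of all Pth UMIs and 97.8% of all Chga UMIs of the whole table. The sequences just before the starts of these 2 genes are shown because their transcripts dominate the cells. Each is the 250 bases before the gene's start in the RefSeq annotation (GRCm38.p6), written 5′ to 3′ on the gene's strand. In the Pth window (chr7:113388574-113388823, minus strand) capitals mark TATAAA and TGACATCA, and in the Chga window (chr12:102554691-102554940, plus strand) they mark TGACGTAA. The last 2 each differ at 1 base from TGACGTCA, the cyclic AMP response element.

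Pth: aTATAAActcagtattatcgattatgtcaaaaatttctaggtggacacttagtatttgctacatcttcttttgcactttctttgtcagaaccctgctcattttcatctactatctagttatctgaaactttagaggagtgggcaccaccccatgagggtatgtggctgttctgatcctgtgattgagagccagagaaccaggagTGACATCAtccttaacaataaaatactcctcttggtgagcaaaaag

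Chga: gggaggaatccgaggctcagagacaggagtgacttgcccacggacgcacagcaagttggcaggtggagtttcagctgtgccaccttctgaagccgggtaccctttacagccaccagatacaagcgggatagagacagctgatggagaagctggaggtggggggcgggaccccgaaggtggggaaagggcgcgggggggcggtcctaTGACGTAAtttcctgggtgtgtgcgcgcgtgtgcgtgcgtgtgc

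The element-like stretch lay at -46 to -39 from the start of Pth and at -44 to -37 from that of Chga, a position the 2 windows nearly share. TATAAA lay at -249 to -244, at the far end of the Pth window. Searched on both strands, TGACATCA stood in 2.93% of 32851 RefSeq windows of this length, TGACGTAA in 0.447%, TGACGTCA in 1.55% and TATAAA in 12.4%. The motifs were chosen after these 2 sequences had been read, and a match in letters does not show that a factor binds. Of the 25 genes named below as highest in P, 22 had a window: 1 held TGACATCA, 2 held TGACGTAA, 0 held TGACGTCA and 4 held TATAAA.

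Pth (ENSMUSG00000059077, GRCm38 chr7:113385580-113388570) was present in all 77 P cells. Its share of a cell's UMIs ran from 4.68% to 64.3%, with a median of 37.9% and quartiles of 29.9% and 47.1%. In 12 cells Pth made up over 50% of the UMIs, and in 5 cells under 10%. Those 5 low cells, 4 from aN1aN2 samples and 1 from an aJ1aJ2 sample, held only 647 to 1148 UMIs, and mitochondrial genes made up 8.66 to 24.4% of them, against a median of 3.52% in the other P cells. The part of depth or RNA quality in their low share was not tested. Among the 39 cells with at least 5000 UMIs the share ran from 12.4% to 54.1% with a median of 40.1%, and among the 38 shallower cells the median was 30.6%. Over the 77 cells, Spearman's rho between the Pth share and the number of UMIs was 0.28, a description over cells that share libraries. The share of Chga in a cell ran from 0.536% to 23.6% with a median of 5.97%.

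**Figure D1:**
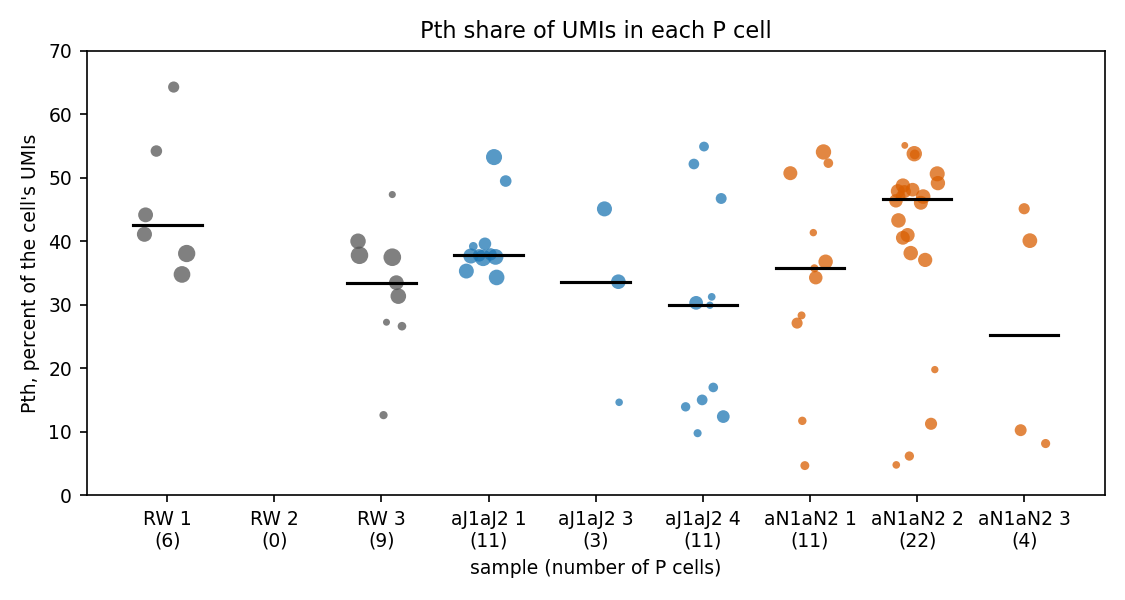
Each point is a P cell, placed by sample (number of P cells in brackets) and by the percent of its UMIs that were Pth; larger points are cells with more UMIs, black lines are sample medians, and colours are groups. Most cells lie near the overall median of 37.9%, and the cells under 10% are small points in the aJ1aJ2 and aN1aN2 samples.

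Summed over the P cells of a sample, Pth stood at 38.6% of UMIs in RW 1, 36.9% in RW 3, 40.0% in aJ1aJ2 1, 39.7% in aJ1aJ2 3, 27.9% in aJ1aJ2 4, 44.4% in aN1aN2 1, 45.3% in aN1aN2 2 and 34.7% in aN1aN2 3. The 3 groups overlapped in this share. aJ1aJ2 4, the sample with the lowest Pth share, also had a median of 1404 UMIs per P cell, against 18648 in aJ1aJ2 1, and the highest median mitochondrial share of the 8 samples, 10.4% against 2.81 to 7.07%. aN1aN2 1 had a similar median of 1302 UMIs per P cell and a Pth share of 44.4%. The part of RNA quality in the low share of aJ1aJ2 4 was not tested.

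Beyond the hormone and its granule protein, a compact set of transcripts marked P. Of 1706 genes with at least 50 UMIs in P and a UMI in at least 25% of its cells, 168 (9.85%) were at a higher level in P than in every other label, and 71 (4.16%) were at least 2-fold higher. Levels are counts per 1000000 UMIs of a label's total (CPM), and, since 3' counts carry no length correction, they are compared between labels for 1 gene and not between genes. Because Pth and Chga fill so much of P's total, every other gene's level is pressed down: with both genes left out of all totals, 675 of the 1706 genes (39.6%) stood above every other label.

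The 25 genes with the largest ratio to the highest other label were, in that order, Pth, Chga, Tnmd, Spink8, Cryba2, Kl, Rhcg, Akr1c13, Tspan6, Fam20c, Lrrn1, Aldh1a3, P2rx6, Gdpd1, Gm11837, Hspa2, Myh10, Adgrg2, Gcm2, Kansl1l, Lancl1, Rnf217, Klk1b26, Dop1b and Shisa2. In all 6 samples with at least 5 P cells, each of the 25 was higher in P than in the other cells of that sample. The genes were chosen from these same cells, and the other labels were pooled here, so this is a description and not support. The ratio fell from 525 for Pth to 106 for Chga, 75.9 for Tnmd and 5.66 for Shisa2, and the next gene in rank, Gnas, stood at 5.41. Gnas encodes the stimulatory G protein alpha subunit, and its counts can include other transcripts of the same locus that end in the same exons.

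**Figure D2:**
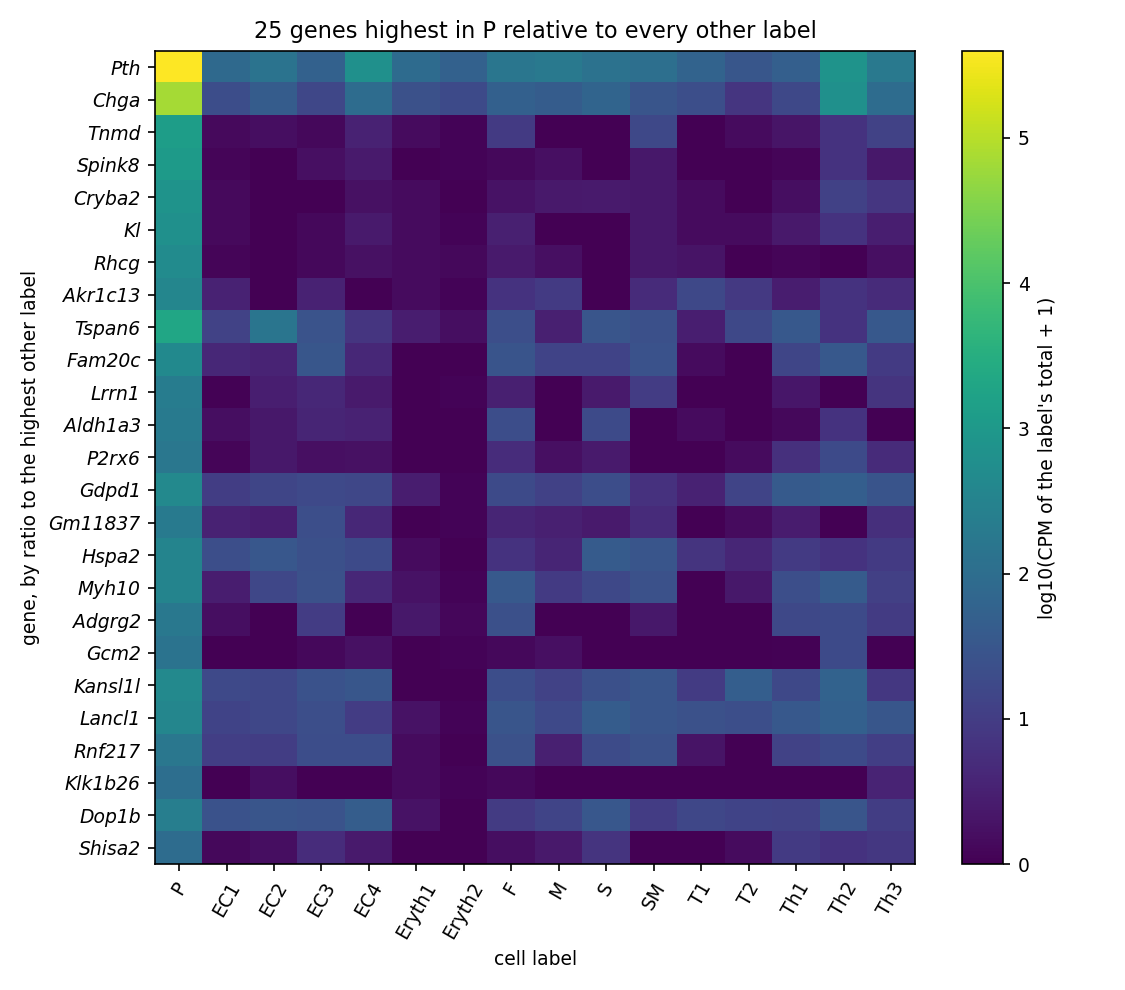
Rows are the 25 genes, columns are P and the other 15 labels, and colour is log10 of the label's CPM plus 1. The P column is the brightest in every row, from Pth at 397330 CPM to Shisa2 at 96.7 CPM, and for Pth the labels Th2 and EC4 follow with 757 and 645 CPM.

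Several of the named genes have known roles in secretory or calcium-handling cells. Kl, the FGF23 co-receptor, was at 643 CPM in P with a UMI in 60 of 77 cells, against 5.69 CPM (1 UMI) in the highest other label. Spink8, a Kazal-type protease inhibitor, was at 1106 CPM in 59 cells, against 5.69 CPM (also 1 UMI) in Th2. Rhcg, an ammonium transporter of epithelial cells, was at 510 CPM in 58 cells and at most 1.52 CPM elsewhere.

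Fam20c, a kinase that phosphorylates secreted proteins in the Golgi, reached 449 CPM in 59 P cells, with 34.2 CPM in the highest other label. Cryba2, a beta crystallin, reached 753 CPM in 55 cells, with 11.4 CPM elsewhere. Tspan6, a tetraspanin, was at 2008 CPM in P and at 152 CPM in EC2, so it was not restricted to P. Aldh1a3, an enzyme of retinoic acid synthesis, was at 205 CPM in P and 19.7 CPM in the label F. These examples show genes nearly absent elsewhere beside others that are shared at a lower level.

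The highest other label was often Th2, a label of 137 cells with a median of 1014 UMIs. A single Th2 cell of RW 1 with 2475 UMIs held 82 of the label's 133 Pth UMIs, 97 of its 114 Chga UMIs and all 3 of its Gcm2 UMIs, so Th2's level of these genes rests mostly on 1 cell. Akr1c13 and Klk1b26 belong to families of near-identical copies, so their counts are uncertain. Gm11837 is annotated as an antisense transcript, and its counts are uncertain unless the counting used strand, which the sources used here do not give.

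The transcription factors of parathyroid development were present at low counts. Of 12 on the list, 11 had a UMI in P and 6 were above every other label when a label under 3 UMIs is taken at 3 (8 by CPM alone). Of the 6 that met the minimum of 50 UMIs and 25% of cells, 5 were above, beside 9.85% of the 1706 genes that met it. Gata3 was at 277 CPM in 50 cells and 54.5 CPM in T1, the nearest label. Gcm2, the factor whose loss abolishes the parathyroid glands in mice, was at 134 CPM with 139 UMIs in 40 cells. Depth touched this count: 33 of the 39 cells with at least 5000 UMIs held a Gcm2 UMI and 7 of the 38 shallower cells did.

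The pharyngeal pouch factors Pax9 and Pax1 were also highest in P, at 90.9 and 36.7 CPM. Tbx1 was at 50.3 CPM in P and 77.8 CPM in EC3. With Pth and Chga out of all totals, Tbx1, Eya1 and Six4 stood at 1.21, 1.80 and 1.69 times the highest other label. With these totals, 39.6% of the 1706 genes stood above every other label. Foxi3 had no UMI in any of the 77 cells. Gcm2 by sample was 154 CPM in RW 1, 118 in RW 3, 126 in aJ1aJ2 1, 193 in aJ1aJ2 3, 261 in aJ1aJ2 4, 217 in aN1aN2 1, 99.0 in aN1aN2 2 and 84.1 in aN1aN2 3. The groups overlapped, and the outer values rest on 7 UMIs in aJ1aJ2 4 and 2 UMIs in aN1aN2 3.

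For calcium sensing, Casr was at 68.6 CPM from 71 UMIs in 30 cells, against 4.62 CPM in Th3. A Casr UMI was seen in 28 of the 39 deeper cells and 2 of the 38 shallower ones. Of the 17 genes of the calcium-sensing list, 14 had a UMI and only Casr and Gnas were above every other label. Of the 7 that met the minimum of 50 UMIs and 25% of cells, 2 were above, beside 9.85% of the 1706 genes that met it. Of the G protein alpha subunits through which Casr signals, Gnaq and Gna11 had 10 and 46 UMIs, Gnai2 and Gnai3 had 116 and 53, and Gnai1 had none. The low counts of these genes limit what can be said of each cell.

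In the vitamin D and FGF23 list, Vdr stood at 111 CPM in 37 cells and at 56.9 CPM in Th2, the next label. Fgfr1 and Fgfr2, receptors with which Kl can form the FGF23 receptor, had 20 and 48 UMIs in 17 and 30 cells, while Fgfr3 and Fgfr4 had none. Cyp24a1 and Cyp27b1, the enzymes that inactivate and form active vitamin D, also had 0 UMIs in P, as did Klb, the co-receptor for other endocrine FGFs. Of the 12 genes of this list, 6 had a UMI in P and, by CPM, only Kl and Vdr were above every other label. Of the 2 that met the minimum of 50 UMIs and 25% of cells, 2 were above, beside 9.85% of the 1706 genes that met it. With Pth and Chga out of all totals, Rxrb of this list also stood above, at 1.15 times the highest other label. A count of 0 in 1034531 UMIs allows up to 2.90 CPM (3 UMIs, counting error only).

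Chga was nearly alone among the granin and release genes. Of 18 genes for granins, prohormone processing and regulated release, 10 had no UMI in P, and only Chga was above every other label. Of the 3 that met the minimum of 50 UMIs and 25% of cells, 1 was above, beside 9.85% of the 1706 genes that met it. Chgb, Scg2, Scg3 and Vgf, which accompany Chga in many endocrine cells, had 0 UMIs, as did the prohormone convertases Pcsk1 and Pcsk2 and the release protein Snap25. Scg5 was at 73.5 CPM against 455 CPM in Th3. Cpe, carboxypeptidase E, was at 74.4 CPM against 568 CPM in SM. The convertases of the constitutive route, Furin and Pcsk7, had 23 and 13 UMIs.

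Of 15 genes for other hormones, 2 had a UMI in P. Calca, the calcitonin gene that defines thyroid C cells, had 12 UMIs in P (11.6 CPM) and 27510 CPM in Th3. Gfra4, a receptor of the GDNF family placed on the C cell list, was however highest in P: 170 CPM in 45 cells, against 35.0 CPM in S. Of other C cell markers, P held Nkx2-1 with 2 UMIs and Calcb with none.

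Genes for entry into the endoplasmic reticulum and protein folding were all detected, and 2 of 20, Ssr4 and Spcs1, stood above every other label, beside 9.85% of all 1706 genes compared. Of the other 18, 17 were highest in Th1. Hspa5, the main chaperone of this compartment, was at 285 CPM in P and 1836 CPM in Th1. With Pth and Chga out of all totals, 3 of the 20 genes (Ssr4, Spcs1 and Spcs2) stood above every other label, beside 39.6% of the 1706, and Hspa5, Hsp90b1 and Calr were at 0.29, 0.23 and 0.37 times the highest other label. The epithelial adhesion gene Epcam was at 841 CPM in P and 664 CPM in Th1, while the keratins Krt8 and Krt18 were at 76.4 and 139 CPM in P and at 350 and 372 CPM in Th1.

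Targets of the blocking antibodies were scarce in P. Over all 77 cells, Notch1 had 0 UMIs, Notch2 had 16 in 11 cells, Jag1 had 1 and Jag2 had 3. Notch2 stood at 15.5 CPM in P and between 28.8 and 56.3 CPM in the other cells of the 8 samples that held P cells. Among classical targets of the pathway, Hes1 had 3 UMIs, and Hey1, Hey2, Heyl and Nrarp had none. Hes6, a relative of Hes1, had 31 UMIs in 24 cells. With such counts, no difference between groups in these genes was detectable at this depth.

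Activity and growth genes were near the limit of detection. Of 12 genes that respond to tissue dissociation, 9 had a UMI in P, with 90 UMIs together, among them 20 of Jun and 1 of Fos, while Atf3 and Dusp1 had none. Clock genes (12 of 15 with a UMI, 117 UMIs), parathyroid growth genes (8 of 10, 96 UMIs) and ion transport genes (8 of 16, 191 UMIs) were as sparse. In these 4 lists, only the calcium channel gene Cacna1d, with 23 UMIs in 16 cells, was above every other label by CPM. With Pth and Chga out of all totals, Xpr1 of the ion transport list also stood above, at 1.07 times the highest other label. The proliferation genes Mki67 and Top2a had 6 and 0 UMIs.

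RNA of other cell types was low in P. The 47 markers counted for 12 other cell types gave 53 UMIs in all, 0.00512% of P UMIs, with 30 of them at 0, and 41 P cells held none. The 5 deepest P cells, with 50186 to 112416 UMIs each, held 39.5% of all P UMIs and 14 of these 53. Thyrocyte and erythroid transcripts were more common. Tg, the thyroglobulin gene, had 257 UMIs in 60 P cells (248 CPM, against 92030 CPM in Th1), while Foxe1, Slc5a5 and Tshr had 0. Only 1 P cell had Tg at 1% or more of its UMIs, at 1.27%. No doublet caller was run.

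Among the P cells themselves, Tnmd was present in some and absent in others. It encodes tenomodulin, a membrane protein best known from tendon. Only the 39 cells with at least 5000 UMIs were used. In 19 of them Tnmd had 0 UMIs, in 5 it had 1 to 8 UMIs, and in 15 it had 25 to 208 UMIs, or 345 to 6122 CPM of the cell's total. The deepest cell with none held 27914 UMIs. The variance of Tnmd over these cells was 53.9 times that of counting, the fifth highest of 1604 genes, whose median was 1.13. Pth (804 times), Malat1 (236), mt-Rnr2 (73.9) and Chga (61.0) were above it, and each of these had a UMI in at least 38 of the 39 cells. Counts were set against each cell's UMIs other than Pth. For the same relative spread this measure grows with a gene's count, so the ranks partly follow abundance.

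Cells with over 20 Tnmd UMIs numbered 1 of 4 in RW 1, 3 of 5 in RW 3, 4 of 6 in aJ1aJ2 1, 1 of 4 in aN1aN2 1 and 6 of 15 in aN1aN2 2. aJ1aJ2 3 had 0 of 2, aJ1aJ2 4 had 0 of 2 and aN1aN2 3 had 0 of 1. High and low cells thus occurred within the same sample and in each of the 3 groups. A sample holds 6 mice, so a difference between mice and one between cells of a mouse cannot be told apart. Tnmd was chosen for this description after its values had been seen, as were the other genes that varied.

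**Figure D3:**
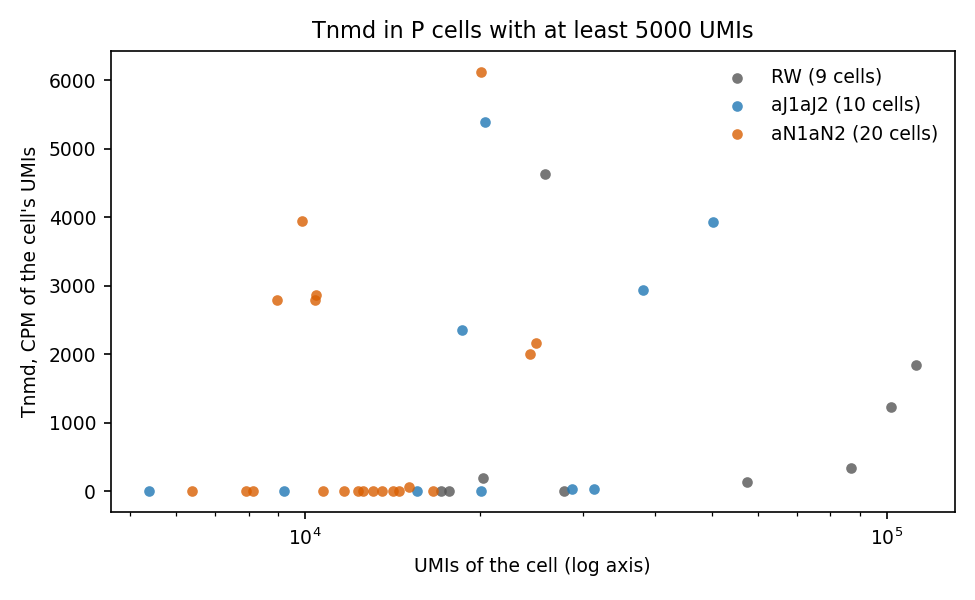
Each point is a P cell with at least 5000 UMIs, placed by its UMIs (log axis) and by its Tnmd level in CPM of the cell's total, with colours for the groups. Points at 0 and points between 345 and 6122 CPM occur at similar depths and in all 3 groups.

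Spp1, which encodes the secreted phosphoprotein osteopontin, was at 0 in 8 of the 39 cells and reached 4515 CPM, with a median of 483 CPM. Spink8 was present in every one of these cells but ran from 287 to 4810 CPM. Other variable genes rested on a single cell: 64 of 67 Serpinb12 UMIs came from 1 cell of aJ1aJ2 1 with 38066 UMIs, and the same cell held 62 of 95 Upk3a UMIs. Serpinb12 encodes an intracellular protease inhibitor and Upk3a a uroplakin of bladder epithelium.

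The share of a sample's cells labelled P overlapped between the groups, also among cells outside Eryth1 and Eryth2, while with 2 other denominators every aN1aN2 sample lay above every RW sample. The share was 0.481% (95% exact Clopper-Pearson interval 0.177 to 1.04%) in RW 1, 0 of 1317 cells in RW 2, which allows up to 0.228% by a limit of 3 cells and 0.280% by the same exact method, and 0.856% (0.392 to 1.62%) in RW 3. It was 1.89% (0.946 to 3.35%) in aJ1aJ2 1, 0.166% (0.0343 to 0.485%) in aJ1aJ2 3 and 0.704% (0.352 to 1.26%) in aJ1aJ2 4. It was 1.05% (0.526 to 1.87%) in aN1aN2 1, 2.49% (1.56 to 3.74%) in aN1aN2 2 and 0.582% (0.159 to 1.48%) in aN1aN2 3. These intervals cover counting error only. With all cells of a sample as denominator, the ranges of the 3 groups overlapped. Among cells outside Eryth1 and Eryth2 the share was 0.639, 0 and 0.953% in RW 1, 2 and 3 and 1.48, 3.54 and 0.893% in aN1aN2 1, 2 and 3. These values overlapped too, with a difference of 1.44 percentage points (exact permutation test, two-sided p = 0.2).

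The mean share was 0.446% ± 0.429 (SD, n = 3) in RW and 0.919% ± 0.880 (SD, n = 3) in aJ1aJ2. The difference of 0.473 percentage points was within the spread (exact two-sided permutation p = 0.5). Without aJ1aJ2 1 it became -0.0107, so its direction rested on that sample. Within series A the difference was 1.03 and within series B 0.195 percentage points. In aN1aN2 the mean was 1.37% ± 0.992 (SD, n = 3), 0.927 percentage points above RW (exact two-sided permutation p = 0.2). Without aN1aN2 2 it was 0.371 percentage points. As a percent of Th1 and P cells together, P was 3.23, 0 and 5.29% in RW and 6.51, 14.7 and 6.06% in aN1aN2, a difference of 6.24 percentage points (exact two-sided permutation p = 0.1). Among cells with at least 2000 UMIs it was 0.698, 0 and 0.715% in RW and 0.890, 3.48 and 0.840% in aN1aN2, a difference of 1.27 percentage points (exact two-sided permutation p = 0.1). With 3 samples against 3 the test cannot go below 0.1. With all 3 aN1aN2 samples in a series of their own there was no within-series value. How much of the small gland was taken with the thyroid in a pool is not recorded in the labels, and its part in these shares was not tested.

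Gene levels in P were compared over the samples with at least 5 P cells: RW 1 and 3, aJ1aJ2 1 and 4, and aN1aN2 1 and 2. UMIs were summed per sample and tested in 1 fit over the 3 groups with edgeR's quasi-likelihood test, and 2056 genes passed the filter on low counts. The deepest P cells of RW 1 held 86922 and 57523 of its 187857 P UMIs. Those of RW 3 held 112416 and 101655 of its 287746, so the RW levels rest mostly on these few cells. Both blockades were set against the same 2 RW samples, so the 2 comparisons are not independent. The levels in the following comparisons are CPM scaled to each sample's TMM-adjusted total, and aJ1aJ2 3 and aN1aN2 3 stayed out of the fit. With 2 samples in each group, the spread rests on 3 residual degrees of freedom per gene and on the information shared over genes.

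After ligand blockade, 0 of 2056 genes (0%) were called at an adjusted p under 0.05, with 70 at an unadjusted p under 0.05 and 0 called by DESeq2. Pth was at 433248 and 400038 CPM in RW 1 and 3 and at 454984 and 263986 CPM in aJ1aJ2 1 and 4. Its change was -0.21 ± 0.45 (log2, SE), and its groups overlapped. Casr was at 77.7 and 64.1 CPM in the RW samples and 116 and 141 CPM in the aJ1aJ2 samples, a log2 difference of 0.78 ± 0.39 (SE) that was not called (edgeR adjusted p = 0.9995). The value of 141 CPM rests on 4 UMIs, and aJ1aJ2 3, outside the fit, had 1 Casr UMI, or 27.5 CPM of its own total, below both RW samples. All 15 tested genes of the mitochondrial genome were higher, with a median log2 difference of 0.60 and 0 called, and aJ1aJ2 4, whose P cells were shallow, held the higher value in each of them. Of the 8 chief cell genes, 4 were higher and 4 lower, with a median log2 difference of -0.04 beside -0.03 over all genes tested.

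After receptor blockade, 10 of 2056 genes (0.486%) were called, all of them higher in aN1aN2 in this fit, with 168 at an unadjusted p under 0.05 and 4 called by DESeq2 (Txnip, Hbb-bs, Serinc3 and mt-Nd3). Among the 10 were Txnip, Sgk1, Pim3, Hbb-bs, Acot1, Serinc3, Lrrn1, Gfra4 and mt-Nd3. Samples of the 2 groups that did not overlap were common among all genes tested: 19.7% lay apart with aN1aN2 higher and 20.7% with aN1aN2 lower.

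Txnip (ENSMUSG00000038393), which encodes a thioredoxin-binding protein that follows glucose supply, had the largest log2 change among the called genes. It was at 59.8 and 22.6 CPM in RW 1 and 3, 77.4 and 177 CPM in aJ1aJ2 1 and 4, and 500 and 522 CPM in aN1aN2 1 and 2. Both aN1aN2 samples stood above the other 4 samples, and the log2 change against RW was 3.74 ± 0.40 (SE; edgeR adjusted p = 0.00027). Without RW 1 it was 4.43 and without RW 3 it was 3.07, and the gene was called in both fits. aN1aN2 3, with 4 P cells, had 6 Txnip UMIs, or 252 CPM of its own total. The same gene was also higher in the rest of the aN1aN2 samples: outside P it was at 343 to 394 CPM in the 3 RW samples, 414 to 736 CPM in aJ1aJ2 and 1518 to 1924 CPM in aN1aN2. What part RNA from those cells had in the P counts was not tested.

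Sgk1, a kinase induced by glucocorticoids, was at 29.9 and 7.54 CPM in RW and 115 and 181 CPM in aN1aN2 (log2 3.24 ± 0.58 SE, edgeR adjusted p = 0.0143). Outside P it did not separate the groups, with 124 to 160 CPM in RW and 134, 161 and 100.02 CPM in the aN1aN2 samples. The kinase gene Pim3 rose by a log2 change of 2.75 ± 0.47 (SE, edgeR adjusted p = 0.0143), from 12.0 and 52.8 CPM in RW to 154 and 297 CPM in aN1aN2. Acot1, a thioesterase of fatty acid metabolism, was at 35.9 and 30.1 CPM in RW and 135 and 213 CPM in aN1aN2 (log2 2.52 ± 0.42 SE, edgeR adjusted p = 0.0140). Outside P, Pim3 went from 54.5 to 128 CPM in RW to 211 to 261 CPM in aN1aN2, and Acot1 from 41.0 to 148 CPM to 296 to 460 CPM. Only 4 of the 15 RW cells held a Sgk1 UMI and 5 held an Acot1 UMI, so these changes rest on few molecules. Without aN1aN2 2, none of Sgk1, Pim3 and Acot1 was called (edgeR adjusted p = 0.859, 0.663 and 0.925). The size of the changes also moved with single samples: Sgk1 was at a log2 change of 4.27 without RW 1 and 2.40 without RW 3. Pim3 was at 4.27 without RW 3 and 2.01 without aN1aN2 2. Without the low-count filter Acot1 was not called either (edgeR adjusted p = 0.0588).

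Lrrn1 and Gfra4 were the called genes that also set P apart from other labels. Lrrn1, a leucine-rich repeat membrane protein, was at 102 and 211 CPM in RW, 160 and 282 CPM in aJ1aJ2 and 538 and 510 CPM in aN1aN2 (log2 1.67 ± 0.32 SE, edgeR adjusted p = 0.0261). Gfra4 was at 126 and 136 CPM in RW, 94.0 and 212 CPM in aJ1aJ2 and 346 and 406 CPM in aN1aN2 (log2 1.54 ± 0.31 SE, edgeR adjusted p = 0.0324). Outside P, Lrrn1 stayed at or below 2.67 CPM and Gfra4 at or below 7.51 CPM in every sample. In aN1aN2 3, outside the fit, they stood at 294 and 252 CPM of its own total. In aJ1aJ2 3, also outside the fit, Lrrn1 stood at 82.6 and Gfra4 at 248 CPM of its own total. DESeq2 called neither Lrrn1 nor Gfra4 (log2 1.73 and 1.54, adjusted p = 0.275 and 0.788). Leaving out the filter on low counts ended both calls (log2 1.43 and 1.30, edgeR adjusted p = 0.836 and 0.970). Leaving out RW 1 did so too (log2 1.27 and 1.47). With P cells thinned to at most 5000 UMIs, Lrrn1 was not called (log2 1.45, edgeR adjusted p = 0.193). Without aN1aN2 2, Gfra4 was not called (log2 1.34). Without RW 3 the log2 change of Lrrn1 was 2.33.

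**Figure D4:**
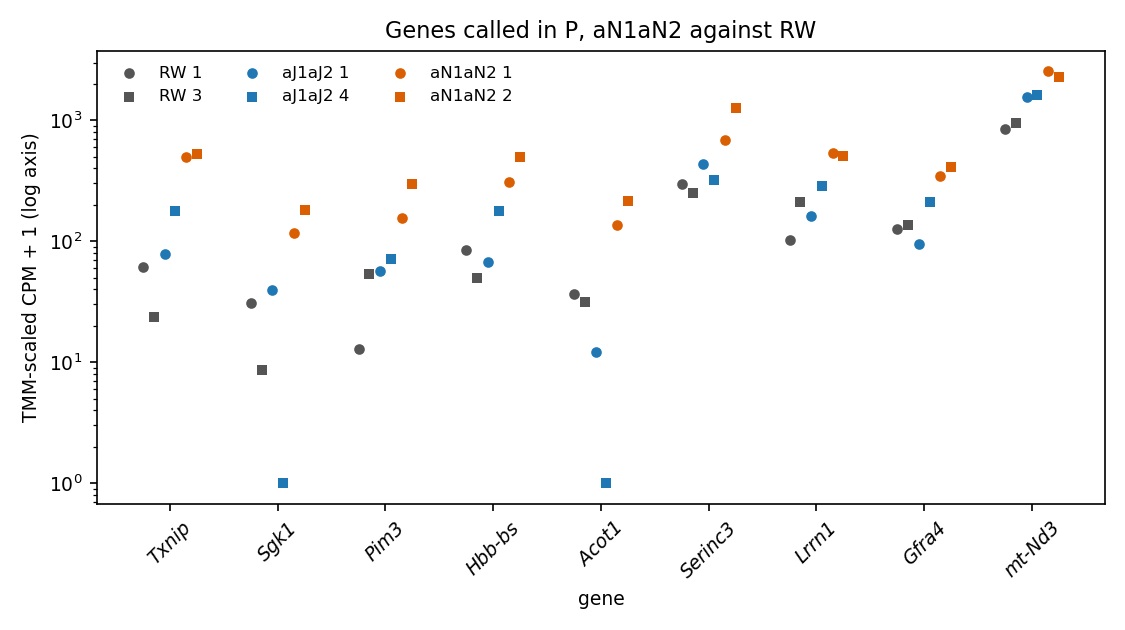
Of the genes called between aN1aN2 and RW, 9 are shown, each with its TMM-scaled CPM plus 1 on a log axis in the 6 samples of the fit; colours are groups and shapes are samples, 1 point per sample. For each gene both aN1aN2 points lie above both RW points, from Txnip at 500 and 522 against 59.8 and 22.6 CPM down to mt-Nd3 at 2537 and 2277 against 849 and 942 CPM.

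Among the other called genes, Serinc3, a membrane carrier, rose by a log2 change of 1.90 ± 0.29 (SE, edgeR adjusted p = 0.00727), and mt-Nd3, a subunit of respiratory complex I, by 1.42 ± 0.25 (0.0143). Serinc3 levels were also apart outside P, where RW samples lay between 494 and 575 CPM and aN1aN2 samples between 1513 and 1700 CPM. For mt-Nd3 the samples overlapped there, with 795 to 1493 CPM for RW and 1460 to 1895 CPM for aN1aN2. Of the 15 tested genes of the mitochondrial genome, 8 were higher and 7 lower in aN1aN2, with a median log2 difference of 0.11 and a range from -1.60 to 1.67. The mt-Nd3 call ended without RW 1 (log2 change 1.32), RW 3 (1.48) or aN1aN2 1 (1.33). The Serinc3 call ended without aN1aN2 2 (log2 change 1.30). Each of these fits left 1 sample in a group. Without the low-count filter neither Serinc3 nor mt-Nd3 was called (log2 1.65 and 1.15, edgeR adjusted p = 0.410 and 0.970). With P cells thinned to at most 5000 UMIs, mt-Nd3 also lost its call (log2 1.54, edgeR adjusted p = 0.107). Serinc3 was at a log2 change of 2.90 in that thinned fit, which was chosen after the data were seen.

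Hbb-bs, a beta globin of red cells, rose by 2.74 ± 0.38 (SE, edgeR adjusted p = 0.00406). It had 14 and 13 UMIs in the P cells of RW 1 and 3 and 16 and 77 in those of aN1aN2 1 and 2. The labels Eryth1 and Eryth2, named for red cells, made up 10.2 to 24.98% of the cells of the RW samples and 29.0 to 34.8% of those of aN1aN2. All 5 erythroid markers had a UMI in P, with 249 UMIs together. In cells outside P and those labels, Hbb-bs was at 820, 3450 and 603 CPM in RW and 788, 2287 and 1393 CPM in aN1aN2. The part of free globin RNA in the Hbb-bs call was not tested.

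The hormone and sensing genes were not called after receptor blockade. Pth was at 549445 and 589619 CPM in aN1aN2 against 433248 and 400038 CPM in RW (log2 0.45 ± 0.45 SE, edgeR adjusted p = 0.851). Chga differed by 0.17 ± 0.39, Casr by -0.05 ± 0.44 and Gcm2 by 0.22 ± 0.39 (log2, SE). With standard errors of this size the fit does not show that these genes were unaffected. Kl was at 922 and 1090 CPM in aN1aN2 against 634 and 697 CPM in RW, and Gnas at 7033 and 9243 against 16844 and 16035 CPM. Neither was called (log2 0.61 ± 0.23 and -1.01 ± 0.31 SE, edgeR adjusted p = 0.462 and 0.267), although Kl was called when each P cell was thinned to at most 5000 UMIs (0.0292).

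Over the lists, 0 of 8 chief cell genes were called after receptor blockade, with 5 higher and 3 lower and a median log2 difference of 0.20, beside -0.002 over all 2056 genes. Of the 25 genes named for P, only Lrrn1 was called, with 15 higher and 10 lower and a median of 0.22. Of the 20 genes for entry into the endoplasmic reticulum and folding, 17 were tested and 0 called, with 12 lower and a median of -0.20. Over all 2056 genes, 10 (0.486%) were called, so call counts in lists this small say little about a list. Only 1 of 13 Notch target genes and none of the 9 receptor and ligand genes had enough UMIs in P to be tested. The tested target was Dtx3, with 84 UMIs in 33 P cells. It was at 149 and 64.1 CPM in RW, 88.4 and 70.6 CPM in aJ1aJ2 and 135 and 103 CPM in aN1aN2. These values overlapped, with log2 differences from RW of -0.22 ± 0.48 and 0.17 ± 0.45 (SE), and neither was called (edgeR adjusted p = 0.9995 and 0.968).

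Pth UMIs also appeared outside P in every sample, including RW 2, which had no P cell. Pth in all other cells was at 63.3, 34.0 and 71.1 CPM in RW 1, 2 and 3, at 81.9, 34.2 and 95.7 CPM in aJ1aJ2 1, 3 and 4, and at 146, 363 and 90.3 CPM in aN1aN2 1, 2 and 3. The highest value was in aN1aN2 2, which also held the most P cells. By label, Pth ran from 30.1 CPM in T2, where 6.57% of cells had a UMI at a median of 1992.5 UMIs, to 757 CPM in Th2. In P, 100% of cells had a UMI at a median of 5395 UMIs. Th1, with a median of 12553 UMIs, had a Pth UMI in 42.1% of its cells at 49.4 CPM.

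**Figure D5:**
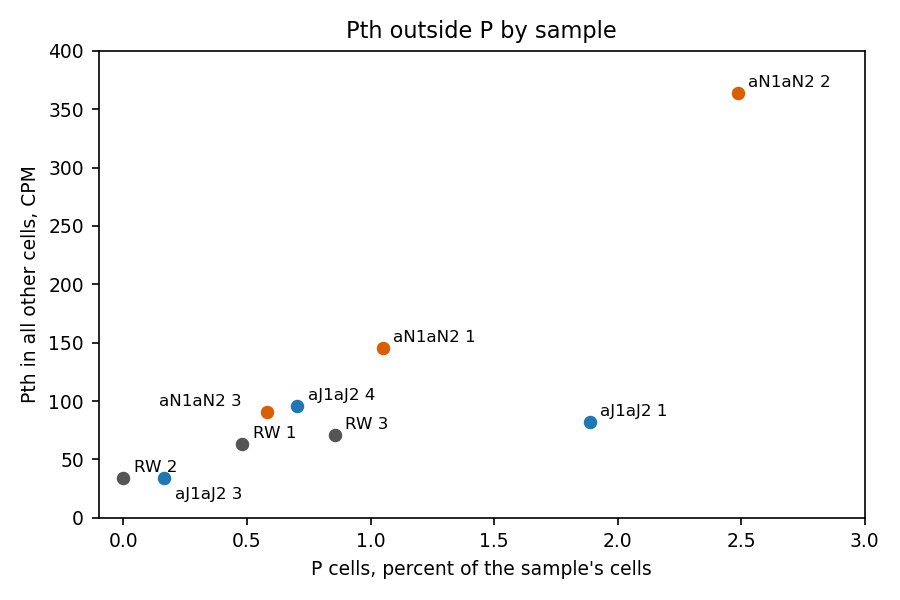
Each point is a sample, placed by the percent of its cells labelled P and by the Pth level of all its other cells in CPM. aN1aN2 2 stands at 2.49% and 363 CPM, while RW 2, without P cells, still has 34.0 CPM.

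Few cells at the edge of the label held as much of the hormone transcript. Outside P, 16 cells had Pth at 1% or more of their UMIs, against 77 of 77 in P, where the lowest was 4.68%. These cells came from 8 samples and 9 labels, 5 of them from EC4, and 4 of them, with 5.32 to 15.1%, lay above the lowest P cell. The highest was an EC4 cell of aN1aN2 2 with 451 Pth UMIs among 2985 (15.1%), 22 Chga UMIs, 2 of Spink8 and 1 of Kl. The Th2 cell of RW 1 described above had more Chga than Pth. RW 2 held 3 of the 16, with 33, 18 and 24 Pth UMIs, and among them only 1 had a UMI of another of Kl, Spink8, Gcm2, Casr or Cryba2.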

How the data were processed

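Thyroid cells of 9 samples were profiled by droplet sequencing of 3' ends. The authors deposited raw UMI counts per gene and cell, made with Cell Ranger on GRCm38 per the submitters' processing notes, and a table of cell labels, in which 2619 lines shifted by an unquoted comma were repaired. Samples held 3013324 to 11880793 UMIs, and each cell at least 500. Symbols came from GENCODE M21 gene names, which matched 52403 of 52636 identifiers; the other 233 held 0.0293% of UMIs. Across libraries, 15 barcodes were shared, none by P cells. P cells were summed per sample, the pool of 6 mice being the replicate, and tested with edgeR 4.0.16 (filterByExpr, TMM, quasi-likelihood, Benjamini-Hochberg adjusted p under 0.05) in R 4.3.3, with DESeq2 1.42.0 as an alternative. A simulation with known changes was also run, with the spread taken from the main fit. Shares were compared by exact permutation of samples. Whether replicate pools came from separate cohorts is not stated, so p-values measure the spread between these samples.

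Named genes were the 25 with the largest ratio of CPM in P to the highest of the other labels (a label under 3 UMIs taken at 3), called genes whose samples did not overlap (up to 10 in each direction), and members of the gene lists. A few genes that the rule names are not reported here. The members and lists were chosen with earlier results of these data known. RefSeq gave the promoter windows. Alternatives changed the normalization, filter, sample and cell minimums, denominators and left-out replicates.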

Additional observations from a re-analysis of the deposited data

How the results depend on the processing

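The P share difference for aJ1aJ2 ran from -0.0107 (reversed, without aJ1aJ2 1) to 0.850 percentage points when 1 sample was left out, and that for aN1aN2 from 0.371 to 1.32. Paired on the shared replicate numbers 1 and 2 (replicate block), the aN1aN2 difference was 1.53; the labels do not say that a number marks a shared batch. No analysis paired by replicate number was possible for the gene fits because RW 2 held no P cells, so RW and aN1aN2 shared only number 1; RW and aJ1aJ2 shared no number with P cells in a title. Fits with at least 10 P cells per sample could not be run, since no RW sample held that many. The count of 0 called genes for aJ1aJ2 became 2 without the low-count filter (Serpinb12 and Upk3a, which rest mostly on the same cell), 3 with samples of at least 3 P cells (Spp1 lower, and the same 2), and 2 to 6 with 1 sample left out, where a group reduced to 1 sample takes its spread from the other groups. With series as a term, added after the data were seen and pairing RW 3 with aJ1aJ2 1 and RW 1 with aJ1aJ2 4, it stayed 0. The 10 calls for aN1aN2 became 19 with samples of at least 3 P cells, 4 with DESeq2, 3 of 242 genes tested after thinning to 5000 UMIs (Serinc3, Kl and mt-Rnr2, the last lower), and 10 to 25 with 1 sample left out (25 without RW 1, 25 without RW 3). Not all calls were then higher: 21 of 25 without RW 1, 19 of 25 without RW 3, 11 of 14 without aN1aN2 1, 8 of 10 without aN1aN2 2, 17 of 19 with at least 3 P cells and 7 of 9 without the low-count filter were. Txnip and Hbb-bs were called in all 10 alternatives in which they were tested, with adjusted p up to 0.00027 and 0.0398; the other 8 genes lost the call in at least 1. Without aN1aN2 2, calls that ended included those of Acot1, Gfra4, Pim3, Serinc3 and Sgk1. The list of 25 kept 13 genes when P was set against all other cells together, 13 with the mean of the ratios within samples, and 22 to 25 otherwise; 36 and 7 cells outside P passed a Pth share of 0.5% and 2% in place of 1%. The causes of these changes were not tested. Depth limits all genes below about 50 UMIs in P.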
